A study of Rattus norvegicus with 6 samples.

Results

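The adrenal gland of the Wistar-Kyoto rat (WKY) was described from the 3 arrays labelled as WKY adrenals, out of 6 in the series; the other 3 hold adrenal glands of another strain, the spontaneously hypertensive rat, and were not set against them. WKY is an inbred strain with normal blood pressure, commonly kept as the reference for the hypertensive one. Total RNA of the adrenal gland was read on Affymetrix RG-U34A arrays, which measure each transcript with groups of short oligonucleotides called probe sets. The labels name no treatment, genotype, age, sex or diet, and they do not say whether the 3 samples came from separate animals. All 8799 probe sets were read, 59 control probe sets were set aside, and the other 8740 were ranked by their mean intensity over the 3 arrays.

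The adrenal gland joins tissues of different origin under 1 capsule. The cortex takes up and stores cholesterol, moves it into mitochondria and converts it by a chain of enzymes to aldosterone in its outer zone and to glucocorticoid in its broad middle zone; in the rat the glucocorticoid is corticosterone, because the enzyme that diverts steroids toward cortisol and androgens is scarcely made there. The medulla consists of chromaffin cells, which turn tyrosine into adrenaline and noradrenaline and store them in granules with chromogranins and peptides. Vessels, nerve fibres, immune cells, a fibrous capsule and the fat around the gland add their own RNA. In such bulk tissue, fewer cells of a type and less RNA per cell cannot be told apart.

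The 3 WKY arrays had been scaled alike before deposit, with a mean of 2504 on each after the brightest and dimmest 2% of probe sets were trimmed. Their medians were 837, 849 and 903 for replicates 1, 2 and 3. Log2 intensities correlated at 0.925 to 0.932 between pairs of arrays (Pearson, across probe sets of arrays that share the platform, so a description only). The ratio of 3' to 5' signal, which rises as RNA degrades, was 0.901 to 1.14 for Gapdh, lowest in replicate 1, and 1.96 to 2.54 for hexokinase, highest in replicate 1. As a measure of background, the 15 probe sets for Bacillus genes, which no rat tissue makes, read 12.8 to 455 with a median of 134. Their 75th percentile on each array (184, 227 and 279) served as the limit below which a probe set was called near background. Because probe sets bind with different strength, a rank orders their brightness and not the number of transcript molecules.

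Signal was concentrated in few probe sets. The brightest 403 probe sets, 4.61% of those ranked, held as much summed intensity as the remaining 8337, and the top 1% of each array held 19.0%, 20.4% and 21.1% on replicates 1, 2 and 3. Mean intensity was 101891 at rank 1, 52657 at rank 100, 6350 at rank 1000 and 870 at the median. Of the 100 brightest probe sets of each array, 81 were shared by all 3. The order within the top was not resolved: for 39 of the 40 brightest, the gap to the next probe set was smaller than the probe set's own SD over the 3 arrays (median gap 552, median SD 8186). At the other end, 1268 probe sets (14.5%) were near background on every array and 5908 (67.6%) were over the limit on every array.

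**Figure D1:**
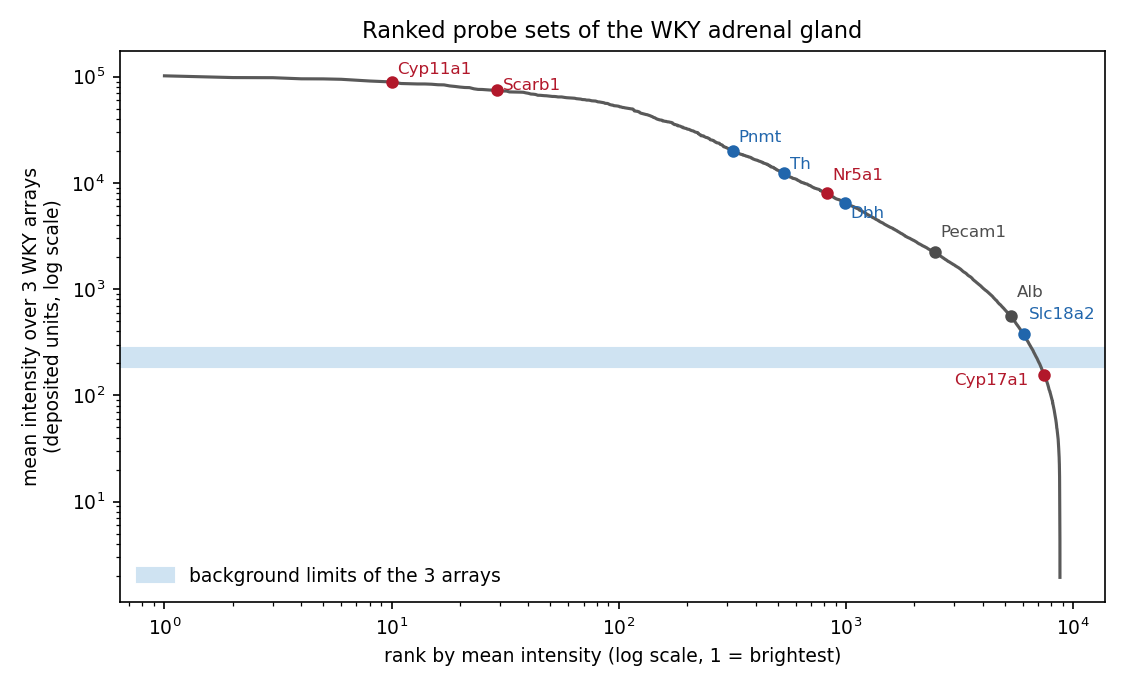
Mean intensity over the 3 WKY arrays (deposited units, log scale) of the 8740 ranked probe sets against their rank (log scale), with the brightest probe set of selected cortex (red), medulla (blue) and other (grey) genes marked and the background limits of the 3 arrays, 184 to 279, shaded. The cortex genes Cyp11a1 and Scarb1 lie on the flat top of the curve, the medulla enzymes Pnmt, Th and Dbh lie at ranks 318, 533 and 989, and Cyp17a1 lies under the shaded band.

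The 40 brightest probe sets were a mixture of steroid-making enzymes, mitochondrial transcripts, ribosomal proteins, actins and haemoglobins. Of these, 17 had 1 gene symbol, 10 had several and 13 had none and are unnamed here, among them the brightest of all, rc_AI171355_s_at, at 84072, 101816 and 119785 on replicates 1, 2 and 3. Ribosomal proteins supplied 8 of the 40 (20%, against 1.13% of all ranked probe sets), and steroid synthesis genes supplied 5 (12.5%, against 0.618%). Protein folding genes and haemoglobins supplied 3 each, and cholesterol supply and oxidative phosphorylation 2 each. These shares describe the ranking that chose the probe sets and were not tested.

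Genes of steroid synthesis filled much of the very top. Of 28 probe sets that represented the list, each gene by its brightest, 6 were in the top 1% and 14 in the top 10%. The median stood at the 89.7th percentile, against 56.7 for all named genes treated the same way (4874 probe sets). The list was not confined to enzymes of synthesis and held, among others, Prlr (rank 206), Hsd11b2 (rank 743) and Inha (rank 778). A probe set shared by Cyp11b1 and Cyp11b2, which make the last steps to corticosterone and to aldosterone, read 70026, 100711 and 123588 on replicates 1, 2 and 3 (mean 98108 ± 26876, SD, n = 3; rank 2). Cyp11a1, which cuts the side chain of cholesterol and so commits it to steroid synthesis, read 75822, 93521 and 98343 (89229 ± 11858; rank 10). Star, which carries cholesterol to the inner mitochondrial membrane where Cyp11a1 works, read 77749, 73500 and 105013 (85421 ± 17100; rank 13), and its other probe set also ranked in the top 100, at 74.

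The enzymes that follow Cyp11a1 were as prominent. The probe set common to Hsd3b1, Hsd3b2 and Hsd3b3, which convert pregnenolone to progesterone, stood at rank 5 with 73044, 89210 and 123785. Fdx1, the ferredoxin that passes electrons to the mitochondrial steroid enzymes, read 64514, 70668 and 79506 (71563 ± 7536; rank 36). Cyp21a1, the hydroxylase that leads from progesterone toward corticosterone, was the most variable of these, with 37077, 60873 and 90478 (62809 ± 26753; rank 63). On the 5 probe sets of Cyp11b1/Cyp11b2, Hsd3b, Cyp11a1, Fdx1 and Cyp21a1 named here, replicate 1 was the lowest array and replicate 3 the highest. Both probe sets of Star and the dimmer one of Fdx1 were lowest in replicate 2.

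Cyp21a1 is the member of this group with both a wide spread and a promoter entry, so its window is shown with the motifs that were searched. The window spans 300 bases around the annotated start in RefSeq's GRCr8 assembly, chr20:4028141-4028440 on the + strand, printed 5′ to 3′. Capitals mark the nuclear receptor motif AAGGTCA, at -216 from the start, and the TATA box letters TATAAA, at -32.
Cyp21a1: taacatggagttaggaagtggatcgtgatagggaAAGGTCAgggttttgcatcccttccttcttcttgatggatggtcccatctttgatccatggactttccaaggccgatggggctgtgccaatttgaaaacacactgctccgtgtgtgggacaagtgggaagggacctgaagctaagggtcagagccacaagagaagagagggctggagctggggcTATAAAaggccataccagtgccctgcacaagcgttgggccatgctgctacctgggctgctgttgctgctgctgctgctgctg
On either strand, AAGGTCA occurred in 4.61% of 33469 promoter windows of this length and TATAAA in 14.2%. Of 23 windows of steroid synthesis genes, AAGGTCA was found in 2, those of Cyp21a1 and Ephx1, and the window of Cyp11a1 held none of the motifs searched. Such a match is a description of the letters and not a site of binding.

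The regulators Nr5a1 and Nr0b1 and the probe set of Cyp11b2 alone ranked well below the steroid enzymes named above. Nr5a1 (steroidogenic factor), the nuclear receptor that drives the steroid enzymes, read 7984, 8416 and 7478 (7959 ± 469; rank 825), and its repressor Nr0b1 (DAX) read 2332, 4172 and 3654 (rank 1731). The probe set of Cyp11b2 alone, the aldosterone synthase of the thin outer zone, read 5969, 3129 and 1934 (3677 ± 2073; rank 1620). It was highest in replicate 1, opposite to the probe set it shares with Cyp11b1. Cyp17a1, the enzyme that opens the cortisol and androgen branch, read 104, 188 and 177 and was near background on all 3 arrays, the only 1 of the 28 to be so. Mc2r, the corticotropin receptor, was not measured here.

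Supply of cholesterol to the cortex was also bright, and uneven. Apoe, an apolipoprotein that the adrenal cortex is known to make, read 83724, 101631 and 87822 (rank 8). Scarb1, the receptor that takes cholesterol esters from high-density lipoprotein, read 58853, 73362 and 90965 (74393 ± 16081; rank 29), and all 3 of its probe sets ranked at 112 or above. Lipa, the lysosomal lipase that frees cholesterol from its esters, read 67532, 66523 and 61297 (rank 52). Soat1, which makes the esters of the lipid droplets, read 9864, 10217 and 10093 (rank 644). Over the 22 probe sets of the list the median percentile was 85.3, with 0 near background.

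Members of that list did not share 1 order of arrays. Idi1, an isomerase of the sterol pathway, read 7408, 1747 and 2533. Cyp51, the lanosterol demethylase, read 8256, 3709 and 4275, and Insig1, the sterol-sensing brake on the pathway, read 14567, 7580 and 8558, each highest in replicate 1. Dhcr7, the last reductase of cholesterol synthesis, was highest in replicate 2 (20938, 28451 and 19173), as was Fdft1, the squalene synthase (3712, 5270 and 4271). Over all ranked probe sets replicate 1 was the highest array for 27.7%, replicate 2 for 32.9% and replicate 3 for 39.4%. In the cholesterol list replicate 1 was highest for 14 of the 22 members (63.6%) and replicate 3 for 1. In the steroid synthesis list replicate 1 was highest for 5 of 28 (17.9%) and replicate 3 for 14 (50%), a count that was 11 to 12 of 28 under other scalings, with replicate 2 at 11. Summed over the list, cholesterol supply was even (333083, 339401 and 330072), most of it in Apoe, Scarb1 and Lipa, whereas steroid synthesis summed to 603893, 704226 and 857262.

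The main enzymes of the medulla were well above background on every array but ranked lower than Cyp11a1, Fdx1 and Cyp21a1. In the medulla lists 4 of 101 probe sets were near background (3.96%, against 10.2% of all named genes). Pnmt, which methylates noradrenaline to adrenaline and is made in few tissues outside the medulla, read 20105, 19022 and 21252 (20127 ± 1115; rank 318). Th, the rate-limiting tyrosine hydroxylase, read 13405, 10446 and 13000 (12284 ± 1604; rank 533). Dbh, which converts dopamine to noradrenaline inside the granule, read 7367, 5635 and 6272 (rank 989), and Ddc, the decarboxylase between them, read 4707, 5641 and 5372 (rank 1211). These 4 enzymes of the adrenaline pathway had CVs of 5.54% to 13.6%, and replicate 1 was the lowest array for 1 of the 4, Ddc. Over the whole lists the median CV was 19.9% for catecholamine genes and 19.5% for the steroid and cholesterol genes of the cortex together.

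Th is shown for the medulla because its window holds the cyclic AMP response element TGACGTCA (capitals, at -69), the letters read by cyclic AMP-regulated factors. The window is chr1:207508169-207508468 on the - strand of GRCr8 (RefSeq), printed 5′ to 3′ along the gene.
Th: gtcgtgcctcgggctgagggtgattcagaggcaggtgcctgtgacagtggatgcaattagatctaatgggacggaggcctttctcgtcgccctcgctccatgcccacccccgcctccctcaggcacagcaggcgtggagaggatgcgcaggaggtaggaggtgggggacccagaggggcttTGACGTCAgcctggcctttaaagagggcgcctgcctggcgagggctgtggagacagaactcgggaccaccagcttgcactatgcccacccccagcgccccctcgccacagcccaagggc
The element, which reads the same on both strands, occurred in 1.83% of all windows. It was found in 2 of 14 windows of catecholamine genes (Th and Slc18a2), in 3 of 17 of granule and neuropeptide genes (Scg2, Sst and Vgf), and not in that of Dbh. Outside the medulla lists it was found in 2 of 22 windows of immediate early genes, a list described below. It was found in 0 of 23 of steroid synthesis genes and 0 of 21 of cholesterol supply genes.

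Over the catecholamine list of 17 probe sets the median percentile was 76.4, and its brightest members, Akr1b1 (rank 230) and Aldh2 (rank 317), are aldehyde-handling enzymes with uses outside the medulla. Gch1, which makes the cofactor of Th, read 6091, 2698 and 6103, lowest in replicate 2. The vesicular monoamine transporter of chromaffin cells, Slc18a1, read 1500, 804 and 1258 (rank 3699). Slc18a2, the transporter usual in neurons, read 511, 476 and 135 on its brighter probe set and was near background on the other.

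Among granule proteins, Chgb, a chromogranin, read 11869, 9692 and 10840 (rank 603), and Pdyn, the precursor of dynorphin, read 8950, 12228 and 11170 (rank 606). Pam, which amidates peptides, read 6355, 6262 and 6423. Npy, a peptide released with catecholamines, read 3101, 2798 and 3824 (rank 1791), and Penk, the enkephalin precursor, read 956, 833 and 981 (rank 4240). The list had a median percentile of 52.2, chromaffin receptors and channels 54.0 and regulated exocytosis 52.4, each below the 56.7 of all named genes. Gal, the precursor of galanin, was the 1 member of the granule list near background. Chga was not measured here.

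**Figure D2:**
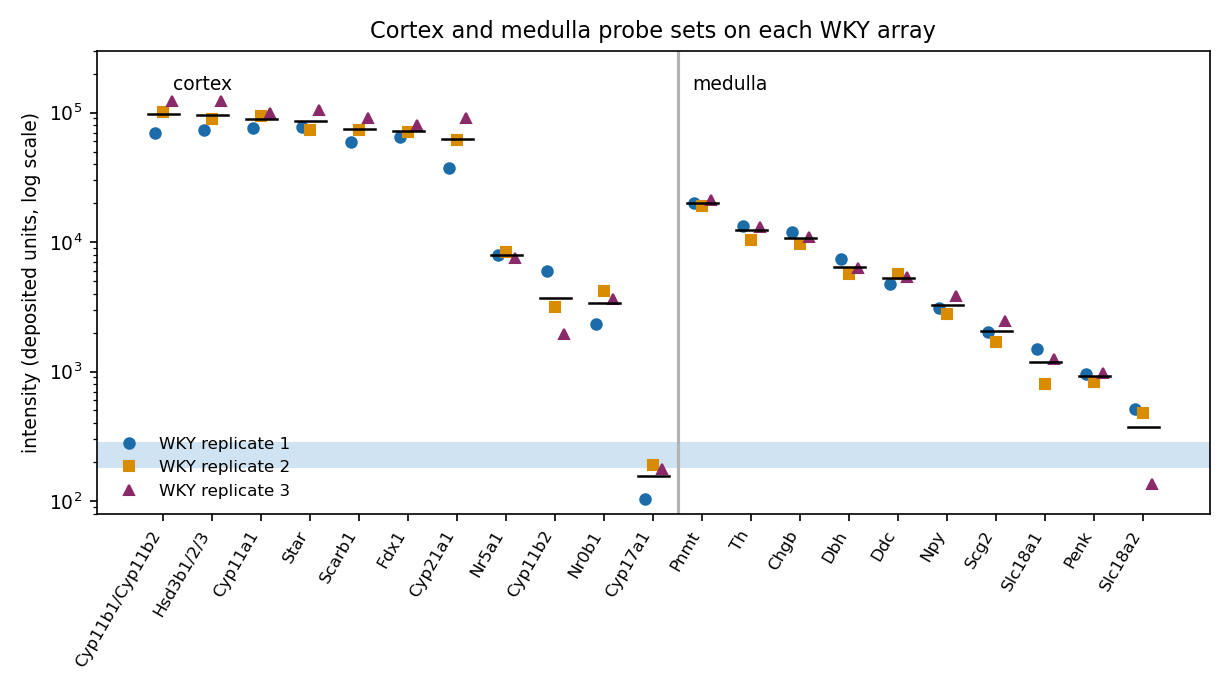
Intensity (deposited units, log scale) of 21 cortex and medulla probe sets on each WKY array (points) with their mean (bar); the shaded band spans the background limits of 184 to 279. The 7 probe sets from Cyp11b1/Cyp11b2 to Cyp21a1 stand between 37077 and 123785 with replicate 3 highest in each, Pnmt, Th, Chgb, Dbh and Ddc stand between 4707 and 21252, and Cyp17a1 falls in or under the band.

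Mitochondrial transcripts formed a second bright group. Of 51 probe sets for oxidative phosphorylation and mitochondrial carriers, 29 were in the top 5% and the median percentile was 95.7. COX1, the mitochondrially encoded core subunit of cytochrome oxidase, read 77503, 93224 and 115785 (rank 4), and COX3, encoded beside it, read 71364, 80701 and 99808 (rank 16). Of the nuclear subunits, Cox4i1 read 65654, 62935 and 71935 (rank 44) and Atp5f1b, the catalytic subunit of ATP synthase, read 61467, 59407 and 65420 (rank 65). On these probe sets Cox4i1 and Atp5f1b differed less between replicates 1 and 3 than COX1 and COX3 did, but other probe sets did not all follow. The dimmer Cox4i1 probe sets were lower in replicate 3 (38222, 50803 and 30812, and 27261, 26857 and 22028). The second COX1 probe set read 59387, 61863 and 72130. COX2, encoded in the same genome, read 53404, 74724 and 49233.

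Other transcripts of protein handling and redox control were close to this level. The mitochondrial chaperonins Hspd1 (76107, 87156 and 94051; rank 12) and Hspe1 (73911, 91883 and 88948; rank 15) led the folding list, whose 29 probe sets had a median percentile of 93.9. Mgst1, a microsomal glutathione transferase, read 60069, 76463 and 68840 (rank 42). Gsta1, of the alpha class of these transferases, read 64708, 65838 and 64914 (rank 51), and Prdx3, the mitochondrial peroxiredoxin, read 59510, 58809 and 71875 (rank 59). The 37 antioxidant probe sets had a median percentile of 88.7, fatty acid oxidation 87.0, and glycolysis with the tricarboxylic acid cycle 91.9, led by Pgam1 (60924, 67221 and 77807; rank 41).

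Ribosomal proteins were both the highest list and the most even. Of 65 probe sets, 59 were in the top 5%, the median percentile was 98.5, and the median CV over the 3 arrays was 7.26% against 22.0% over all named genes. Rps16, of the small subunit, read 75268, 74920 and 75566 (75251 ± 323; rank 26), and Rpl23, of the large subunit, read 65921, 66275 and 66588 (rank 47). Translation factors followed with a median percentile of 95.6. Rack1, a scaffold on the ribosome, had the smallest CV of the top 25%, 0.114%, at 32397, 32349 and 32325.

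**Figure D3:**
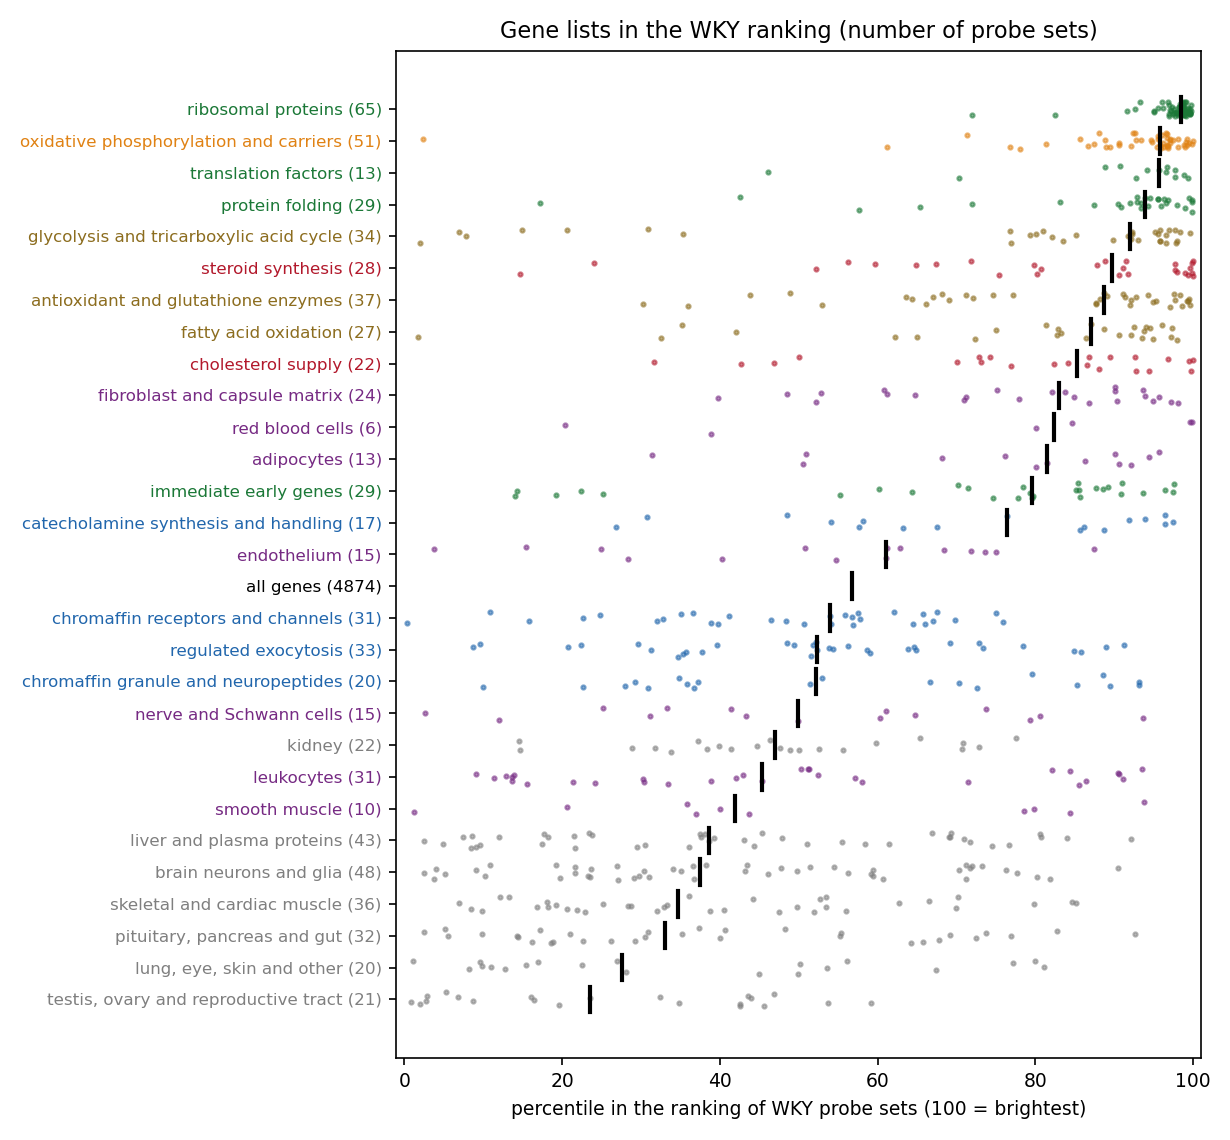
Percentile in the WKY ranking (100 is the brightest probe set) of the members of 28 gene lists, each gene by its brightest probe set (points, coloured by class; spread vertically for sight only), with list medians as bars and the number of probe sets in brackets. Ribosomal proteins (98.5) and oxidative phosphorylation (95.7) stand highest, steroid synthesis stands at 89.7, all named genes at 56.7, and the lists of other organs between 23.6 and 47.0.

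Support cells were represented unequally. Matrix and capsule genes had a median percentile of 82.9 over 24 probe sets, led by Sparc, a collagen-binding matrix protein, at 37393, 33628 and 40762 (rank 168), and Mgp, matrix Gla protein, at 27032, 24125 and 29136 (rank 244). Col3a1 read 19631, 19812 and 12899 and Col1a1 read 18935, 13294 and 13256. Endothelial genes had a median of 61.0, with Thbd (thrombomodulin) at 4402, 5718 and 7386 and Pecam1 at 1761, 2392 and 2506, while Vwf, the clotting factor of endothelium, read 286, 318 and 388, just over the limit on each array. Smooth muscle (41.9), leukocytes (45.4) and nerve and Schwann cells (49.9) lay below all named genes. Haemoglobin was bright: a probe set shared by beta globin genes read 74371, 91461 and 79830 (rank 18), and 1 shared by Hba-a1 and Hba-a2 read 64886, 75729 and 73911 (rank 37).

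Markers of other organs were mostly dim. Over 222 probe sets of 7 such lists the median percentile was 37.8, 42 were near background (18.9%, against 10.2% of all named genes), and 0 were in the top 5%. Reproductive tract genes were lowest (23.6, with 8 of 21 near background), and kidney genes highest (47.0, with 2 of 22). Alb, the liver's albumin, read 508, 518 and 652 on its brightest probe set, Umod, made by the kidney's thick ascending limb, read 848, 442 and 1190, and Ckm, the muscle creatine kinase, read 934, 403 and 409. These values were over the limit on every array, as was the median probe set of these lists (432 to 539), so the Bacillus limit is lower than the level at which such markers usually read.

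Of the 3 other-organ markers above the 90th percentile, 1 shares its probe set with metallothionein genes and names no single gene, and the other two, Drd3 and Ins2, were dim on their remaining probe sets. Drd3, a dopamine receptor of the brain, read 8190, 7938 and 7462 on 1 probe set, and 124, 61.2 and 97.3, near background, on the other. Ins2, insulin, read 7570, 10158 and 12493 on 1 probe set, against means of 575 and 118 on the other two. The adipocyte hormone Lep showed the same split, at 17580, 16177 and 17651 on 1 probe set and means of 1159 and 331 on the rest.

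Disagreement between probe sets of 1 gene was common. Of 1570 genes with several probe sets of their own, the brightest exceeded the dimmest by a median of 3.01-fold, and by 10-fold or more for 292 genes (18.6%). The widest case among bright genes with 3 or more probe sets was Gpx1, the cytosolic glutathione peroxidase, with means of 60956 ± 11869 and 120 ± 43.7 on its brightest and dimmest, the latter near background. Psme1, an activator of the proteasome, ranged from 29853 to 66.5, and Hspa5, the chaperone of the endoplasmic reticulum, from 18233 to 122. Steroid genes were not exempt: Fdx1 had a second probe set at 3076, 2886 and 3443 (rank 1831), and 1 of the 3 sets for Hsd3b genes read 1209, 1538 and 1957. Cyp17a1 was read by a single probe set.

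Spread between the arrays depended on level. The median CV was 42.7% in the dimmest 25% of probe sets, 15.1% between the 75th and 90th percentiles, and 10.4% in the top 1%. In the top 25%, 71 of 2185 probe sets had a CV over 50%, and in the top 1% 0 did. Egr1, a transcription factor made within minutes of stimulation, had the largest CV of the top 25% on 1 of its probe sets (100%), at 615, 2842 and 8191. Of its other probe sets, 2 had the same order of arrays, and the remaining 1 was even, at 2379, 2522 and 2000. Alas1, the rate-limiting enzyme of haem synthesis, read 2304, 18223 and 38493 (CV 92.2%; rank 325), and its other probe set read 4458, 8980 and 19164, with the arrays in the same order. Pck1, the gluconeogenic enzyme also made in fat, ran the other way at 6847, 2755 and 473.

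**Figure D4:**
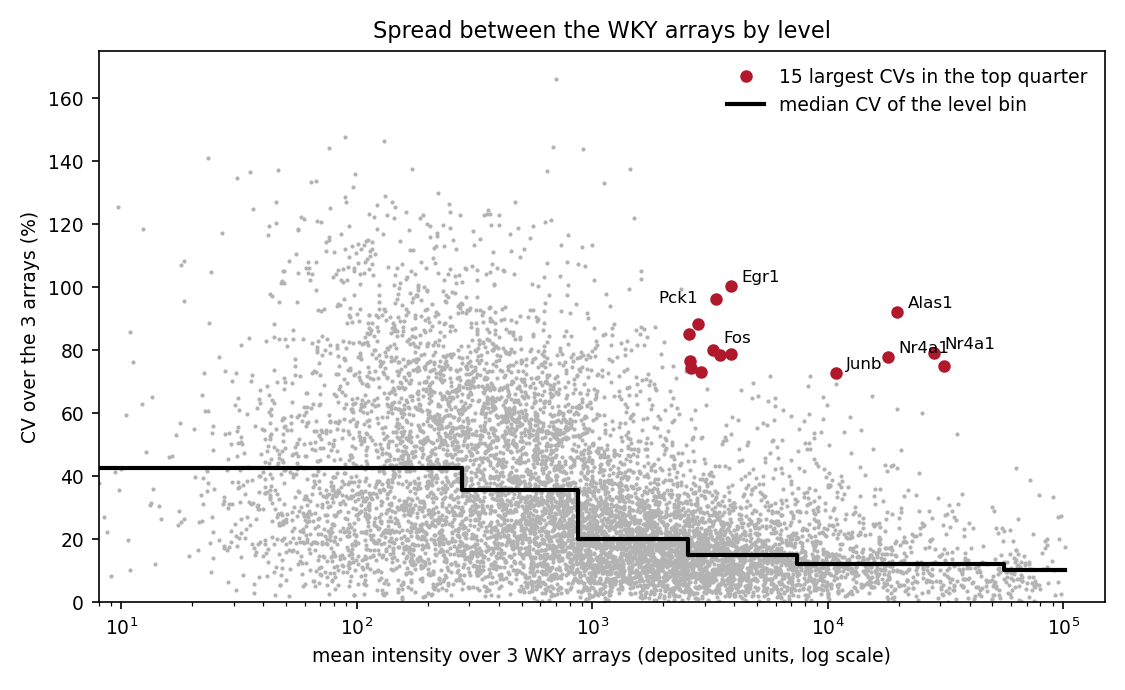
Coefficient of variation over the 3 WKY arrays (%) against mean intensity (deposited units, log scale) for the ranked probe sets with a mean over 8 (grey), the median CV of 6 level bins (black steps) and the 15 largest CVs of the top 25% (red, some named). The median CV goes from 42.7% in the dimmest 25% to 10.4% in the top 1%. Egr1, Alas1, Nr4a1, Fos and Junb are among the 15, as are Pck1 (96.2%), Idi1 (78.7%), Ass1 (78.3%) and probe sets without a symbol.

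Immediate early genes, which encode transcription factors and feedback regulators made quickly after a stimulus, were the list whose summed intensity differed most between arrays (CV 35.0%, next adipocytes at 33.9%). Their 29 probe sets summed to 110613, 179565 and 232064 on replicates 1, 2 and 3, and replicate 1 was lowest and replicate 3 highest for 18 of them (62.1%, against 22.5% of all ranked probe sets and 17.8% of the top 25%). Nr4a1, an orphan nuclear receptor known to be made in the cortex after corticotropin, read 5541, 29110 and 50340 (rank 229). Junb read 4477, 14550 and 16242, and Fos read 2841, 12580 and 9527. The relatives of Nr4a1 followed it, Nr4a3 at 1721, 7444 and 8696 and Nr4a2 at 955, 3500 and 4676.

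Not every member did so. Jun, the partner of Fos, read 32590, 29106 and 30680 on its brightest probe set. Of its other probe sets, 2 were highest in replicate 3 (8011, 7737 and 14315, and 8244, 7766 and 11479). Its dimmest was highest in replicate 1 (2250, 1702 and 348). Klf10 read 5603, 4662 and 4494. The 3' to 5' ratio was highest in replicate 1 for hexokinase (2.54, against 2.01 and 1.96) and actin (1.38, against 1.25 and 1.28) and lowest there for Gapdh (0.901, against 1.11 and 1.14), and the part of RNA quality in this pattern was not tested. The arrays came from 1 chip lot and 1 fluidics station, each on a module of its own, so module and sample cannot be told apart. Their recorded times of day lay within 11 minutes, and their dates were not compared.

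Fat and immune markers each singled out another array. The 13 adipocyte probe sets summed to 102171, 69393 and 52393, and replicate 1 was highest for 10 of them (76.9%, against 27.7% of all ranked probe sets) and lowest for 0. The brightest, Lep, was even at 17580, 16177 and 17651. Fabp4, the fatty acid carrier of adipocytes, read 16168, 8507 and 3869. Ucp1, the uncoupling protein that marks brown fat, read 11472, 9626 and 2770, and Cfd, the adipocyte-secreted adipsin, read 11114, 7341 and 3958. Plin1, the coat protein of fat droplets, was low and highest in replicate 2 (178, 830 and 143), and none of the 13 was near background. Of the 28 steroid synthesis probe sets, 9 were lowest in replicate 1 and highest in replicate 3 (32.1%, against 22.5% of all ranked probe sets). Among the 13 adipocyte ones, 0 had that order and 8 had the reverse. The part of fat in the steroid values was not tested.

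Leukocyte markers were highest in replicate 2 for 22 of 31 probe sets (71.0%, against 32.9% of all ranked probe sets), and summed to 56766, 91663 and 54332. The brightest included class II antigen-presenting molecules: RT1-Da read 9032, 16145 and 8842, RT1-Ba 5844, 10905 and 7058, and Cd74, the chain that escorts them, 6371, 12604 and 5044. Lyz2, a lysozyme, read 8461, 10349 and 6206. The T cell markers Cd3d (138, 745 and 215) and Cd8a (125, 753 and 213) showed the same array high at levels near the limit elsewhere, and Coro1a, a leukocyte actin-binding protein, read 127, 2433 and 182. C1qc, a complement chain of macrophages, was even at 4439, 4812 and 4193. On all 3 arrays, 5 of the 31 were near background (16.1%, against 10.2% of all named genes).

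**Figure D5:**
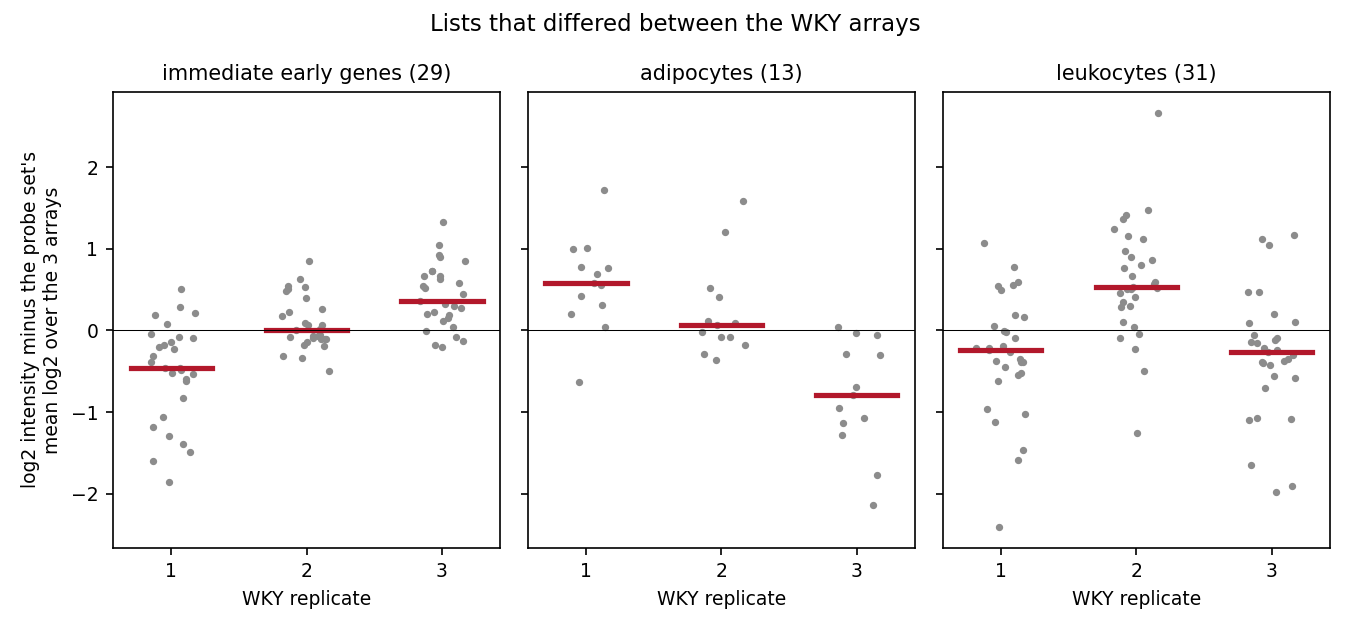
Log2 intensity minus each probe set's mean log2 over the 3 arrays, for the immediate early (29), adipocyte (13) and leukocyte (31) probe sets on WKY replicates 1, 2 and 3 (points, spread sideways for sight only), with medians as red bars; replicates have no order. Median deviations were -0.45, 0.01 and 0.36 for immediate early genes, 0.58, 0.07 and -0.79 for adipocytes and -0.24, 0.53 and -0.26 for leukocytes.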

How the data were processed

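Intensities of 8799 probe sets on 3 WKY arrays were taken as the authors deposited them, 1 value per probe set on a linear scale. How probes were summarised and scaled, and with which software, was not given in the sources used here. A settings file per array, deposited by the authors, gave other values (chip lot, station, module, time of day). Each sample was grouped by its title. After 59 control probe sets were left out, 7017 of 8740 had 1 gene symbol, 297 several and 1426 none, from the array's annotation table, with names updated through RefSeq's GRCr8 gene table (7824 of 7879 lookups matched). Promoter windows came from RefSeq (GRCr8).

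Mean, SD and CV (SD over mean) were computed over the 3 arrays with Python 3.11.15, numpy 2.4.6 and pandas 2.3.3, and drawn with matplotlib 3.10.9. Percentiles count the share of ranked probe sets that are dimmer. A gene in 1 of 28 lists was represented by its brightest probe set, and a probe set shared by members counted once. Near background means at or under the 75th percentile of 15 Bacillus controls on all 3 arrays. No test was run, since all comparisons were within 1 group. With 3 arrays, their number limits the precision of each SD. The calculation of ranks and limits was checked on simulated data with known levels. That check did not bear on whether the limit suits these arrays.

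Named were the 40 brightest probe sets, the 5 brightest of each list, other-organ members above the 90th percentile, the 15 largest and 10 smallest CVs of the top 25%, a fixed set of adrenal and marker genes, and the 8 bright genes with 3 or more probe sets of widest ratio, some not reported here. Nr4a2, Nr4a3, Klf10, Plin1, Cd3d, Cd8a, Coro1a, C1qc, Cyp51, Insig1, Fdft1, Soat1, Gal, Ephx1, Prlr, Hsd11b2, Inha and COX2 were chosen after their values were seen. The members and lists were chosen with earlier results of these data known. Alternatives were the geometric mean, the median, quantile normalization, a common median, each array left out, other background limits, averaging the probe sets of a gene, and leaving out those with several symbols.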

Additional observations from a re-analysis of the deposited data

How the results depend on the processing

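Of the 100 brightest probe sets, 96 to 100 were shared under the geometric mean, the median, quantile normalization and a common median, and 96 to 97 without 1 array. The share held by the top 1% stayed at 19.6% to 20.6% under these settings. The count near background depended on the limit: it was 1268 at the 75th percentile of the Bacillus controls, 2211 at their maximum (340 to 455) and 2522 at the median of other-organ markers (432 to 539). The median CV was 24.7%, and 19.1% to 20.6% without 1 array. A CV over fewer arrays tends to have a lower median, so these values are not like for like. Averaging the probe sets of each gene gave median percentiles of 83.5 for the cortex lists together (87.3 by the brightest), 50.7 for the medulla (54.4), 85.7 for metabolism (88.9), 58.5 for support cells (61.2), 34.3 for other organs (37.8) and 96.9 for ribosome, folding, translation and early genes together (96.7). Leaving out probe sets with several symbols gave 93.7 for that last group, and the geometric mean 96.7. The median of the arrays gave 63.3 for support cells. Without 1 array the medians were 54.4 to 55.3 for the medulla, 88.5 to 89.8 for metabolism, 62.1 to 63.7 for support cells and 96.6 to 96.8 for the ribosome group. Averaging also changed the unit counted: each gene then counted separately, even where genes shared a probe set. In the other settings a shared probe set counted once. Beyond that, the cause of these shifts was not tested. Of 252 list medians under these settings, 54 moved by more than the list's SD over the 3 arrays. The largest move was 15.7 percentage points, for red blood cells with averaging, where genes that share a probe set counted separately. Steroid synthesis fell from 89.7 to 84.6 without probe sets with several symbols, and stood at 89.2 to 90.4 otherwise. Averaging took chromaffin receptors and channels from 54.0 to 41.7. Nerve and Schwann cells, at 49.9, ranged from 42.7 to 56.6 without 1 array. The geometric mean and the median give no CV and no count near background.

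Quantile normalization and a common median, added after the data were seen for the order of arrays, gave replicate 3 highest in 20 to 22 of 29 immediate early probe sets, replicate 1 in 10 to 11 of 13 adipocyte ones and replicate 2 in 22 of 31 leukocyte ones. For steroid synthesis, replicate 3 was highest in 12 of 28 under quantile normalization and 11 under a common median, against 14 as deposited. Replicate 2 was highest in 11 under both, against 9 as deposited. The lead of replicate 3 thus narrowed under quantile normalization and became a tie under a common median. Every SD rests on 3 arrays, which may be technical repeats.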
